A study of Arabidopsis thaliana with 12 samples.

Results

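The genes described here encode 4 proteins of the thylakoid lumen of Arabidopsis thaliana and were grouped under photosystem assembly. A role of AT1G74070 in the photosystems was not tested. PSB27 (AT1G03600) and LPA19 (AT1G05385) are both of the Psb27 type, PSAN (AT5G64040) is a subunit of photosystem I, and AT1G74070 encodes a protein of the cyclophilin type. They were chosen by name, with earlier results of these data known, as genes for which an array probe is annotated with that gene alone. Each had 1 such probe among the 3439 probes of the array, of which 692 are annotated with 1 gene. Wild-type plants of ecotype Columbia 0 were either kept for a final 48 h in air with 0.003% CO2 by volume (low CO2, day 2 in the sample titles) or grown at a normal CO2 level (normal CO2, day 0). Total RNA was measured in 12 samples, 6 per group, with replicate numbers 1 to 6 in each. Time and CO2 differ together between the groups, so their effects cannot be told apart. The labels name no tissue and do not tell if each replicate is a plant or pool of its own, and the p-values therefore reflect no more than the scatter of these samples, part of which may be technical. None of the 9 seed and root marker genes looked for had a probe of its own, so the plant part could not be checked.

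The thylakoid lumen is the space enclosed by the photosynthetic membrane of the chloroplast, and its soluble proteins are encoded in the nucleus and imported across the envelope and the thylakoid membrane. Photosystem II is built stepwise from subcomplexes and is continually repaired, because its D1 reaction centre protein is damaged by light, and lumen proteins of the Psb27 type bind to the incomplete complex during this cycle. Photosystem I receives electrons from plastocyanin on its lumen side, where the PsaN subunit sits. Cyclophilins catalyse the rotation of peptide bonds next to proline, a slow step of protein folding. When CO2 is scarce, carbon fixation takes up little of the electron flow from the photosystems.

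At low CO2 the transcript of AT1G74070 rose, that of LPA19 fell, and those of PSB27 and PSAN did not pass the test. Thus 2 of the 4 genes were past an adjusted p of 0.05 (limma, Benjamini-Hochberg over all probes), where 42.4% of all 3439 probes were, so a count of this size says nothing particular about these genes. Upward calls made up 18.9% of all probes and downward calls 23.5%, or 649 and 808 probes, a balance that moved with the scaling to 373 and 1302 on the deposited scale and to 724 and 703 with median scaling. Levels are given below as the deposited intensity, a linear value in array units with array means between 0.993 and 1.10. Fold changes are log2 values after quantile normalization, which sets the distribution of all probes equal between arrays. On the deposited scale the median of all probes shifted by -0.60 at low CO2, against -0.05 after normalization. In bulk RNA a lower signal from fewer expressing cells cannot be told apart from less RNA per cell.

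**Figure D1:**
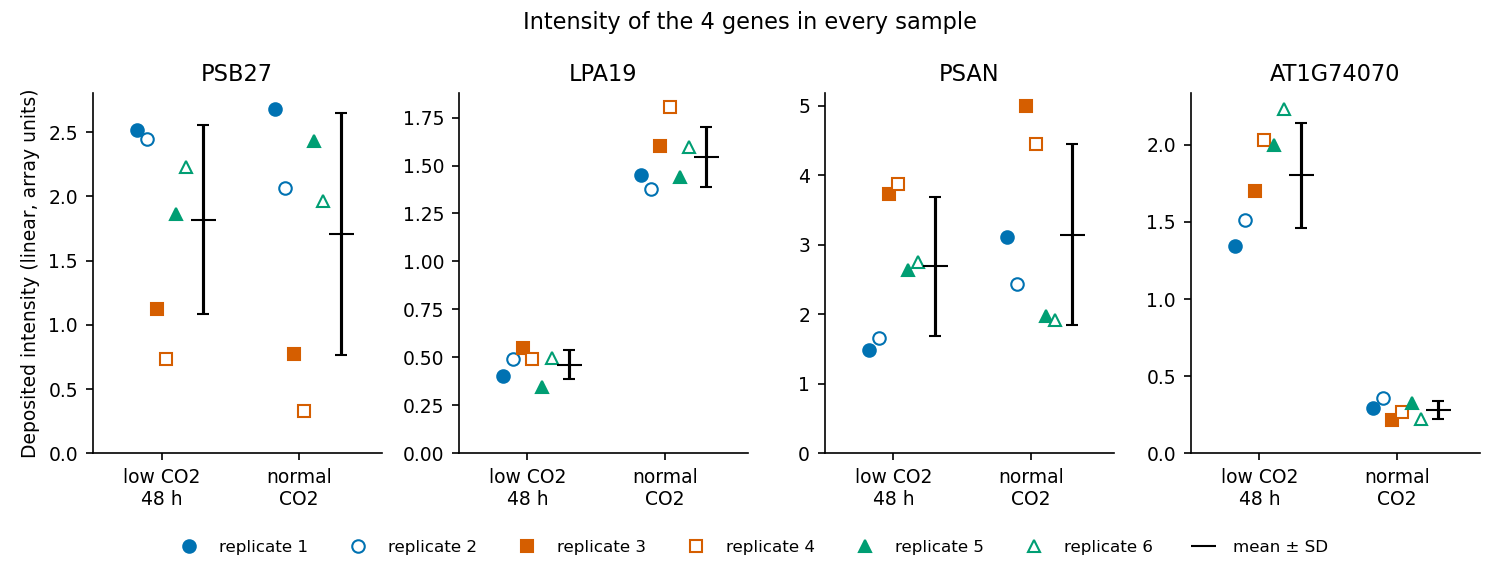
Deposited intensity (vertical axis, linear array units, from 0) of each gene in the 6 low CO2 and 6 normal CO2 samples, with the replicate number shown by marker and the mean ± SD as black bars. LPA19 and AT1G74070 separate the groups without overlap, as do 34.5% of all probes. PSB27 and PSAN spread within both groups, with replicates 3 and 4 at the bottom for PSB27 and at the top for PSAN.

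LPA19, which assists the processing of the D1 precursor during photosystem II assembly, fell at low CO2. Its intensity ran from 0.345 to 0.547 with a median of 0.490 at low CO2, and from 1.38 to 1.80 with a median of 1.52 at normal CO2. The lowest normal CO2 sample was thus 2.52 times the highest low CO2 sample, and the groups did not overlap. Such a separation in deposited values was found for 34.5% of all probes. The means were 0.462 ± 0.0742 at low CO2 and 1.55 ± 0.155 at normal CO2 (SD, n = 6 each). The log2 fold change was -1.38 ± 0.12 (SE, 95% interval -1.64 to -1.11, limma adjusted p = 8.67e-06), and 441 probes (12.8%), LPA19 included, had a value at least as low. Within the same replicate number LPA19 was lower at low CO2 in 6 of 6, as the separation of the groups requires, by -1.14 to -1.62 on the log2 scale.

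PSB27, which associates with photosystem II intermediates and is needed for efficient recovery after light damage, had no difference between the groups that exceeded its spread. Its intensity ran from 0.734 to 2.52 with a median of 2.04 at low CO2, and from 0.330 to 2.68 with a median of 2.01 at normal CO2. The ranges overlapped almost entirely. The means were 1.82 ± 0.737 at low CO2 and 1.71 ± 0.942 at normal CO2 (SD, n = 6 each), and the log2 fold change was 0.41 ± 0.56 (SE, limma adjusted p = 0.590). Its 95% interval, -0.82 to 1.64, includes changes of more than 1 log2 unit upward, so that an unchanged level was not shown.

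The spread of PSB27 followed the replicate numbers. Replicates 3 and 4 had intensities of 1.12 and 0.734 at low CO2 and of 0.774 and 0.330 at normal CO2. The other replicates lay between 1.86 and 2.52 at low CO2 and between 1.96 and 2.68 at normal CO2. All 4 samples numbered 3 or 4 were therefore below the 8 others, a pattern shared by 160 probes (4.65%). The difference between groups also varied with the number. It was 0.90 and 1.42 on the log2 scale in numbers 3 and 4, and between -0.31 and 0.30 in numbers 1, 2, 5 and 6. Without numbers 3 and 4 the log2 fold change of PSB27 was 0.03 ± 0.14 (SE, limma adjusted p = 0.868), and without normal CO2 replicate 4 alone it was -0.0168.

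Both Psb27-type genes were set against each other within each array. The normalized log2 value of PSB27 minus that of LPA19 averaged 1.70 ± 0.774 at low CO2 and -0.09 ± 1.36 at normal CO2 (SD, n = 6 each). As probes differ in brightness, only the shift of this difference between the groups can be read. It was 1.79 on the log2 scale, positive in 6 of 6 same-numbered comparisons (1.31 to 2.92), with p = 0.0173 in a two-sided exact permutation test over all 924 arrangements of 6 and 6. The ranges of the groups overlapped, from 0.534 to 2.44 at low CO2 and from -2.39 to 1.01 at normal CO2. With adjacent samples averaged, 3 against 3, the exact p was 0.2, where the smallest possible is 0.1. The shift was 1.04 (exact p = 0.00649) with each sample's median over the probes at the same place on the array subtracted, a step described with the places further on. It missed the threshold without numbers 1 and 2 (1.95, exact p = 0.0571) and without numbers 5 and 6 (2.03, exact p = 0.143). This comparison was made with the changes of both genes already known. On its own LPA19 changed by -1.38 and PSB27 by 0.41 on the log2 scale, so most of the shift is the fall of LPA19. The p-value of the shift is therefore not evidence apart from that fall.

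PSAN, whose product helps plastocyanin dock at photosystem I, likewise had groups that overlapped. Its intensity ran from 1.49 to 3.87 with a median of 2.70 at low CO2, and from 1.91 to 5.003 with a median of 2.77 at normal CO2. The means were 2.69 ± 0.9996 at low CO2 and 3.15 ± 1.31 at normal CO2 (SD, n = 6 each). The log2 fold change was -0.19 ± 0.32 (SE, 95% interval -0.88 to 0.50, limma adjusted p = 0.662). It turned positive with median scaling, at 0.31, and with scaling to the 75th percentile, at 0.18, so PSAN has no settled direction.

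The replicate numbers set PSAN apart too, the opposite way to PSB27. Replicates 3 and 4 were at 3.73 and 3.87 at low CO2 and at 5.003 and 4.45 at normal CO2. No other sample exceeded 3.11, and 81 probes (2.36%) likewise had these 4 samples on top. Within numbers, PSAN was lower at low CO2 in 1 to 4, by -0.15 to -1.05 on the log2 scale, and higher in 5 and 6, by 0.46 and 0.55.

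**Figure D2:**
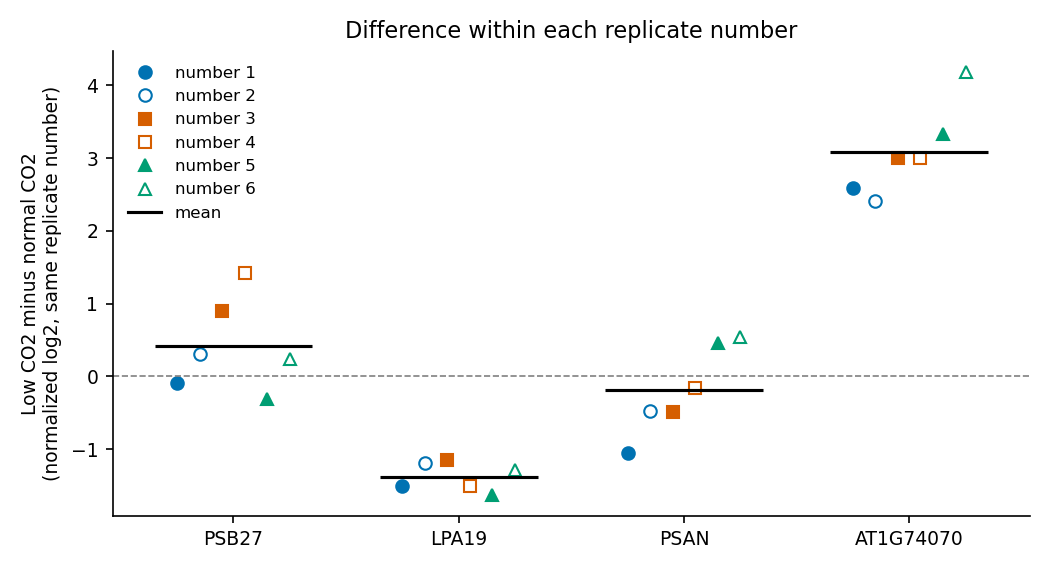
Low CO2 minus normal CO2 difference in normalized log2 value (vertical axis) between samples of the same replicate number, 6 points per gene, with their mean as a line. All 6 points lie below 0 for LPA19 and above 0 for AT1G74070, as the separation of their groups requires. Those of PSB27 and PSAN lie on both sides.

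AT1G74070, the gene of the cyclophilin type, rose more than the others. Its intensity ran from 1.34 to 2.23 with a median of 1.85 at low CO2, and from 0.218 to 0.359 with a median of 0.280 at normal CO2. The lowest low CO2 sample was 3.74 times the highest normal CO2 sample, and 34.5% of all probes likewise had groups that did not overlap. The means were 1.80 ± 0.342 at low CO2 and 0.281 ± 0.0562 at normal CO2 (SD, n = 6 each). The log2 fold change was 3.09 ± 0.20 (SE, 95% interval 2.64 to 3.53, limma adjusted p = 1.29e-06), or 8.49-fold, and on the deposited scale it was 2.68, or 6.41-fold. Among all probes 90 (2.62%) had a log2 fold change as high or higher, and 15 of these, AT1G74070 included, were probes of 1 gene. AT1G74070 was higher at low CO2 in 6 of 6 replicate numbers, as the separation of the groups requires. The differences ran from 2.40 in number 2 to 4.18 in number 6. In number 6 the normalized log2 value was 1.23 at low CO2, the highest of that group, and -2.95 at normal CO2, the lowest of that group.

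The sum of squares of the 12 normalized log2 values of each gene was divided between the CO2 group, the replicate numbers taken as 1 and 2, 3 and 4, and 5 and 6, and the remainder. The numbers were joined because in each of the 12 samples the closest sample of its own group, by deviations from the group mean over all probes, was the one with the adjacent number. The CO2 group held 94.99% of the spread of LPA19 and 96.0% of that of AT1G74070. A larger group share was found for 1.48% and 0.989% of all probes. The joined numbers held 78.9% of the spread of PSB27 and 67.4% of that of PSAN, with a larger share in 1.63% and 5.32% of probes, whereas the CO2 group held 4.61% and 3.32%. Over all probes the group held 37.9% on average and the joined numbers 26.2%. These shares describe the 12 samples and were not tested. With the place on the array subtracted, the group share was 71.6% for LPA19, 92.3% for AT1G74070, 11.2% for PSB27 and 20.7% for PSAN. The joined numbers then held 66.8% of the spread of PSB27 and 25.4% of that of PSAN.

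**Figure D3:**
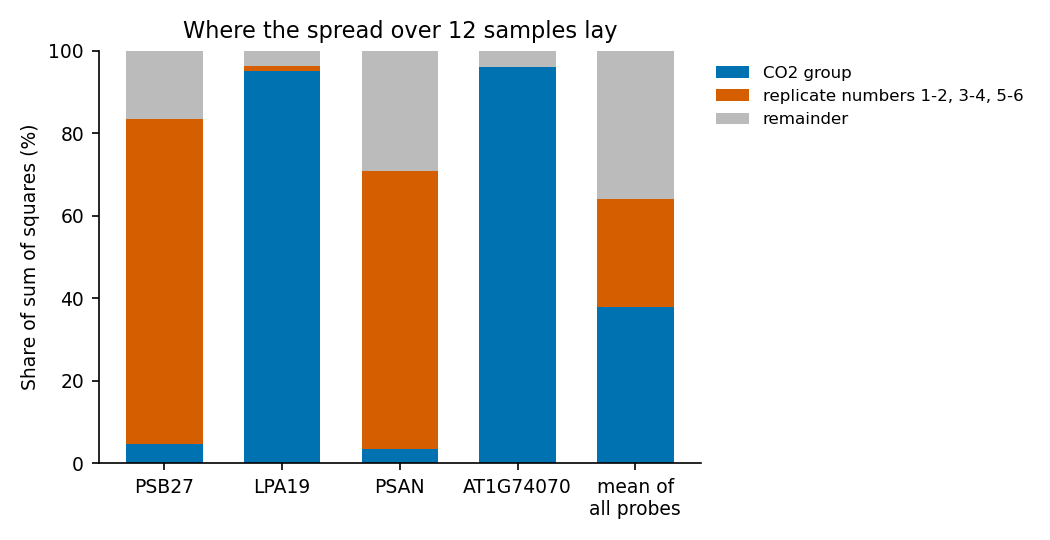
Share of the sum of squares (vertical axis, percent, stacked to 100) of each gene's 12 normalized log2 values held by the CO2 group, by the joined replicate numbers and by the remainder, with the mean over all 3439 probes as the last bar. The group fills 94.99% and 96.0% of the bars of LPA19 and AT1G74070, and the numbers fill 78.9% and 67.4% of those of PSB27 and PSAN. With the place on the array subtracted (not drawn), the group held 71.6% for LPA19 and the numbers 25.4% for PSAN.

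Since samples with adjacent numbers resembled each other, 6 against 6 may overstate the number of independent samples, and averaging adjacent samples leaves 3 against 3. On these averages AT1G74070 had an SE of 0.28 (limma adjusted p = 0.00905) and LPA19 an SE of 0.19 (adjusted p = 0.0149), where 18.0% of all probes passed. Both also passed with a replicate block (45.9% of all probes past the threshold), with adjacent pairs as a random block (29.3%) and on the deposited scale (48.7%). PSB27 and PSAN, which passed in none of these fits, had adjusted p of 0.743 and 0.804 on the averages. The 95% interval widened to -1.52 to 2.34 for PSB27 and to -1.34 to 0.96 for PSAN. Same-numbered samples also deviated together across groups, and with the replicate number as a block the interval narrowed to -0.19 to 1.01 for PSB27 (SE 0.25, limma adjusted p = 0.220) and to -0.77 to 0.39 for PSAN (SE 0.24, adjusted p = 0.542). With both averages and block the SE of PSB27 was 0.33 (adjusted p = 0.414). In that fit AT1G74070 and LPA19 were only just past the threshold (limma adjusted p = 0.0442 and 0.0453), where 375 of all 3439 probes passed.

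The probe numbering was divided into 16 stretches, and each stretch into 48 places. Probes at the same place of any stretch were grouped. Both numbers were settings, and a repeat of fold changes along the numbering was not tested. The place on the array thus stands for a position in the numbering, and the physical location of the probes was not checked. The probes at the place of LPA19 changed in the same direction as LPA19, with a median log2 fold change of -0.75 over the 75 others. At the place of AT1G74070 the median of the 69 others was 0.60. With each sample's median at a place subtracted, AT1G74070 was at 2.52 (limma adjusted p = 7.43e-06) and LPA19 at -0.65 (adjusted p = 0.00372), where 37.5% of all probes passed. LPA19 did not pass with adjacent samples averaged as well (adjusted p = 0.0803). PSAN was at 0.41 after the subtraction (adjusted p = 0.218) and PSB27 at 0.40 (adjusted p = 0.378).

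Low values in replicates 3 and 4 were also met in other probes at the place of PSB27. The mean of these 4 samples minus that of the 8 others was -1.80 on the log2 scale for PSB27, and the median over the 73 other probes at the place was -1.22. For PSAN this difference was 0.91, and 0.46 over the 62 others. After the subtraction it was -0.69 for PSB27 and 0.47 for PSAN. The part that the place has in these values was not tested.

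**Figure D4:**
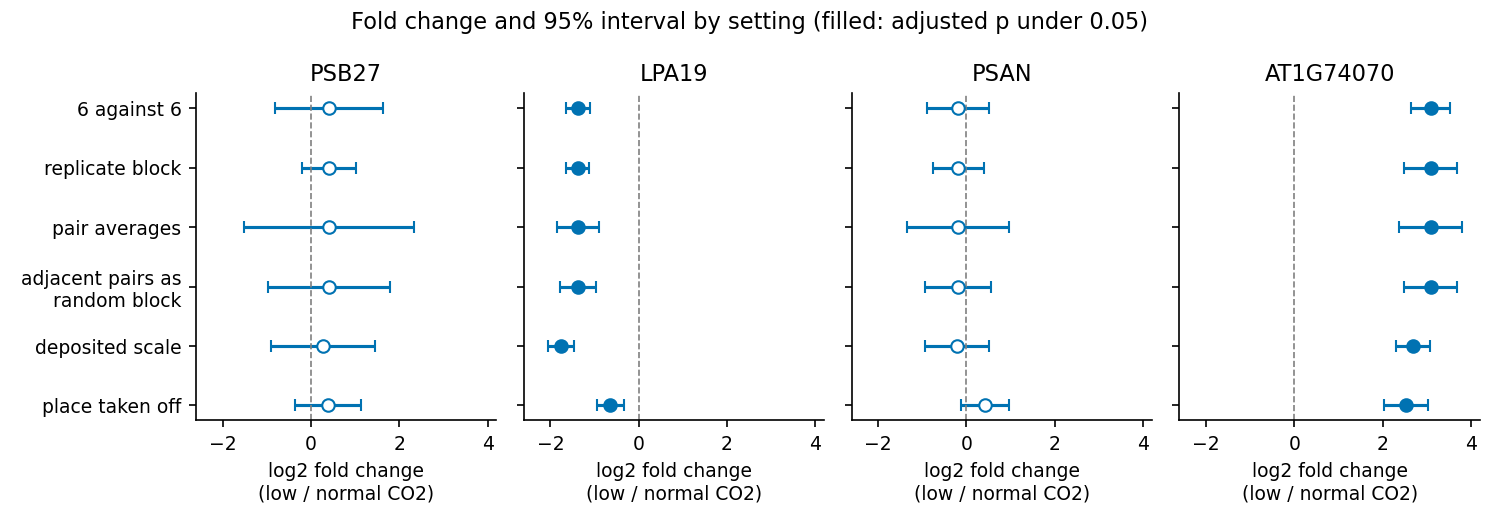
Log2 fold change, low over normal CO2 (horizontal axis), with its 95% interval for each gene in 6 fits, filled where the adjusted p was under 0.05. AT1G74070 and LPA19 pass in all 6, with LPA19 nearest to 0 when the place on the array is subtracted (-0.65), and PSB27 and PSAN pass in none.

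Genes with a pattern like that of each gene were sought among the 501 other probes of 1 gene above the 25th percentile of mean signal, by Pearson correlation over the 12 samples, which share arrays and replicate numbers. The genes closest to LPA19 were AT2G30320 (r = 0.974), AT3G11150 (0.970) and DRT101 (0.966), and those closest to AT1G74070 were AT4G35660 (0.981), AT3G57120 (0.974) and AT3G32940 (0.973). Both of these genes separate the groups, and 7.78% and 4.99% of the candidates exceeded 0.9 with LPA19 and AT1G74070. AT2G30320 shares its place on the array with LPA19. PSB27 was most like SIS (r = 0.940), AT3G13180 (0.916) and AT5G63290 (0.904), none of them past the threshold between groups. PSAN was most like AT3G12000 (0.884), AT4G13220 (0.851) and AT3G56010 (0.766).

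With the group means taken off, the closest to PSB27 were AT5G33390 (r = 0.951) and AT4G39760 (0.940), which rose by 1.46 and 3.28 on the log2 scale between groups (limma adjusted p = 0.0162 and 2.05e-05). The closest to PSAN were AT4G19900 (0.901), which rose by 1.78, and AT2G48090 (0.890), which changed by -1.45. For LPA19 they were AT1G62010 (0.785) and AT4G08630 (0.721), and for AT1G74070 they were AT2G40980 (0.844) and AT4G23080 (0.766).

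Of 100 further genes listed for photosystem assembly, photosystem subunits, isomerases of the lumen, other lumen proteins and transport across the thylakoid, 9 had a probe of their own. Of these 3 rose, 2 fell and 4 did not pass, beside 42.4% of all probes past the threshold. The median log2 fold change was 0.42, or 0.21 without AT5G13410, which is mostly listed at 0, against -0.05 over all probes.

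In photosystem II assembly and repair, AT1G54500, which encodes a thylakoid rubredoxin, fell, as did LPA19, so that 2 of 3 measured genes fell, beside 23.5% of all probes, and PSB27 did not pass. AT1G54500 ran from 2.84 to 4.36 at low CO2 and from 6.19 to 7.11 at normal CO2, and its log2 change was -0.90 ± 0.12 (SE, limma adjusted p = 0.000105). It did not pass with the place on the array subtracted (-0.35, adjusted p = 0.0712) or with adjacent samples averaged and a replicate block (adjusted p = 0.0789).

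Among photosystem II subunits and the PsbP family, PSBW, a small membrane subunit, rose with intensities of 22.2 to 40.6 at low CO2 and 9.67 to 13.7 at normal CO2. Its log2 fold change was 0.97 ± 0.19 (SE, limma adjusted p = 0.00178), with an adjusted p of 0.0775 on averages of adjacent samples. The size of the rise depended on the setting, at 1.37 on the deposited scale, 1.90 with median scaling, 1.76 with scaling to the 75th percentile and 1.52 with the place on the array subtracted. PSBY rose by 0.46 ± 0.17 (adjusted p = 0.0474), which was lost on the deposited scale (0.21, adjusted p = 0.386) and on averages of adjacent samples (adjusted p = 0.253). With the place on the array subtracted PSBY was at 0.99 (adjusted p = 6.47e-05), and it passed with adjacent samples averaged as well (adjusted p = 0.0175). In 16 of 29 other settings PSBY missed the threshold. AT1G76450, of the PsbP-domain family, was dim, at 0.0940 ± 0.0515 at low CO2 and 0.283 ± 0.0445 at normal CO2 (SD, n = 6 each). Its intensities did not overlap, as for 34.5% of all probes, yet it was at -1.13 ± 0.47 (adjusted p = 0.0745). The call depended on the scaling. AT1G76450 passed on the deposited scale (-1.78, adjusted p = 0.00158), with median scaling (-1.25, adjusted p = 0.0210) and with scaling to the 75th percentile (-1.39, adjusted p = 0.00953). A pseudocount also let it pass (-0.73, adjusted p = 0.0447), but cyclic loess scaling did not (-1.07, adjusted p = 0.0556). It also passed with the place subtracted (-1.76, adjusted p = 0.0193), but not with adjacent samples averaged as well (adjusted p = 0.159).

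PSAN was the single photosystem I subunit gene measured of 12 listed. The photosystem I assembly gene AT1G22700 had intensities of 0.157 to 0.336 at low CO2 and 0.188 to 0.344 at normal CO2, and its log2 change was 0.42 ± 0.28 (SE, limma adjusted p = 0.257), or -0.28 on the deposited scale. With the place on the array subtracted it was at 0.86 (adjusted p = 0.0163).

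Of 17 listed cyclophilins and FKBP-type isomerases of the plastid, 3 were measured and AT1G74070 was the one that passed. Over all probes 42.4% passed, and 18.9% passed upward. The other cyclophilin gene, AT5G35100, had a mean intensity of 0.734 ± 0.159 at low CO2 and 0.977 ± 0.231 at normal CO2 (SD, n = 6 each). Its log2 fold change was -0.0016 ± 0.20 (SE, limma adjusted p = 0.995) after normalization and -0.41 on the deposited scale (adjusted p = 0.138). The FKBP-type gene AT5G13410 is listed at 0 in 4 of 6 low CO2 and 5 of 6 normal CO2 samples and reached at most 0.0245 and 0.00171, so it has no usable fold change.

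AT4G24930, which encodes another protein of the lumen, rose by 0.94 ± 0.18 on the log2 scale (SE, limma adjusted p = 0.00150), with intensities of 0.419 to 0.559 at low CO2 and 0.210 to 0.523 at normal CO2. It missed the threshold on the deposited scale (0.45, adjusted p = 0.157) or on averages of adjacent samples (adjusted p = 0.0742). SECE1, a subunit of the channel through which unfolded proteins enter the lumen, fell. Its intensities were 0.261 to 0.456 at low CO2 and 0.920 to 1.51 at normal CO2, and its log2 change was -1.25 ± 0.19 (SE, limma adjusted p = 0.000249; 0.0319 on averages of adjacent samples). It did not pass with a replicate block added to these averages (adjusted p = 0.0532).

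**Figure D5:**
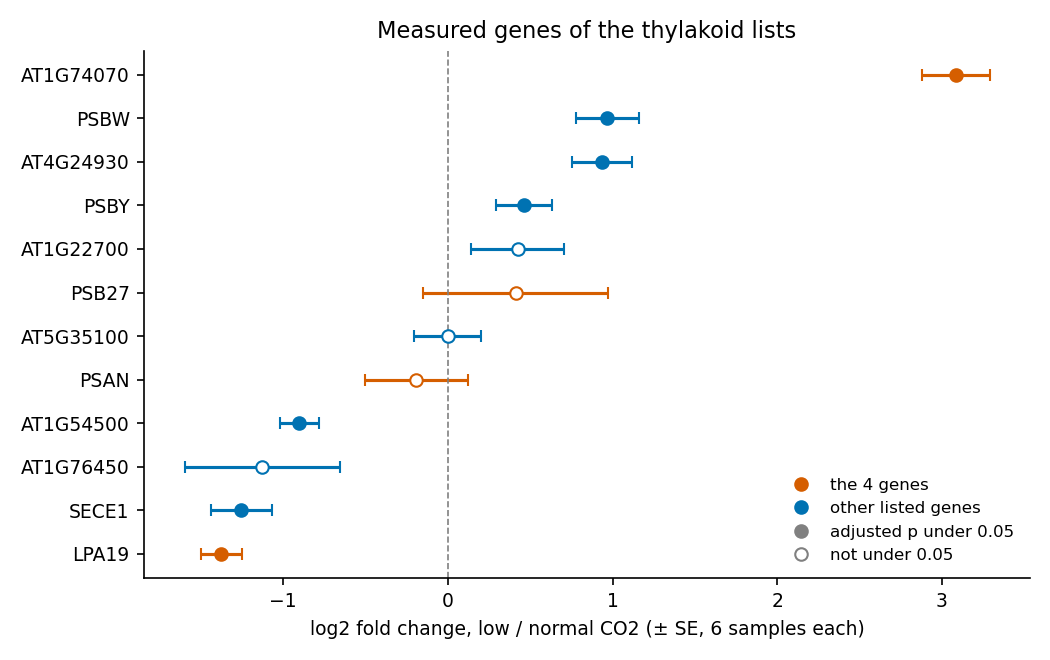
Log2 fold change, low over normal CO2 (horizontal axis, ± SE), of the 4 genes and of 8 other measured genes of the lists, filled where the adjusted p was under 0.05, with AT5G13410 left out because it is mostly listed at 0. AT1G74070 (3.09) and LPA19 (-1.38) stand at the ends, and PSB27 (0.41) and PSAN (-0.19) lie near 0 with open symbols.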

How the data were processed

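The authors deposited linear intensity values per probe, not below 0 and at most 100. No scanner, background correction or scaling is named in the sources used here. Samples were grouped by their titles, which also give the replicate numbers. Genes were named from the platform annotation for probes with 1 gene, through the TAIR10.1 gene table where listed (690 of 692). Other probes (870 with several genes, 1877 unlisted) entered the tests unnamed.

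A value of 0 was replaced by the lowest value above 0 on the same array before log2 was taken, and arrays were quantile normalized. Groups were compared over all 3439 probes with limma 3.58.1 in R 4.3.3 (6 against 6, two-sided, Benjamini-Hochberg, threshold 0.05). The number of arrays limits the precision. The procedure was tested on simulated data in which all samples were drawn independently. That test cannot tell how the p-values behave when adjacent samples resemble each other, as they do here.

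Same-numbered samples of both groups deviated together (correlations of 0.128 to 0.214, numbers from the titles). Differently numbered samples of the 2 groups were not compared, so a pairing by number was not shown. Alternatives were other scalings, a replicate block, averages of adjacent samples or a random block for them (correlation 0.567), filters, a pseudocount of 0.0493, the place on the array and samples left out. Members and lists were chosen with earlier results of these data known. Named were the members, all measured genes of the lists and, for each member, the 3 genes most like it by values and 2 by deviations.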

Additional observations from a re-analysis of the deposited data

Results flagged for a closer look

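Over 66 groups of 6 normalized log2 values, for the 4 genes, the listed genes and the genes most like them, 1 held a sample flagged by its gap to the others as a share of the range. Chance gives about 3.3. For AT5G13410 the normal CO2 replicate 6 had an intensity of 0.00171 while the other 5 normal CO2 samples are listed at 0, a gap of 1 of the range. That share is fixed once the others are tied, and the sample itself was near the floor (normalized log2 value -12.3). None of the 8 groups of PSB27, LPA19, PSAN and AT1G74070 held such a sample. The measure takes the gap to the nearest value, so samples that deviate together, such as replicates 3 and 4 of PSB27, can hide each other.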

How the results depend on the processing

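Each result was recomputed under up to 29 other settings. AT1G74070 kept its direction and stayed past the threshold in all 29, between 2.52 and 3.40 on the log2 scale, with a limma adjusted p of at most 0.0442. LPA19 did so in 28, between -1.75 and -0.65, and was lost with the place subtracted and adjacent samples averaged (-0.65, adjusted p = 0.0803). PSB27 passed in none, and with 1 sample left out ran from -0.0168 (without normal CO2 replicate 4) to 0.63. PSAN passed in none and changed sign in 5, at 0.31 with median scaling, 0.18 with the 75th percentile, 0.41 with the place subtracted, alone or with adjacent samples averaged, and 0.0950 without numbers 1 and 2. With 1 sample left out, PSAN ran from -0.32 to -0.04. The PSB27 minus LPA19 shift had an exact p of 0.03125 with the replicate block, by sign changes within numbers, the smallest that the 64 sign arrangements allow. It missed the threshold with adjacent samples averaged (1.79, exact p = 0.2, or 0.25 with the replicate block) or with the place subtracted as well (1.04, exact p = 0.1), where the number of splits allows no p under 0.05, nor without numbers 1 and 2 (1.95, exact p = 0.0571) or 5 and 6 (2.03, exact p = 0.143), and the cause was not tested. Calls over all probes were 1457, and 618 on averages of adjacent samples, 375 with the replicate block as well, 454 with the place subtracted and averages, and 1578 with the replicate block alone. The replicate block changed no call of the 4 genes. Of the listed genes, AT1G22700 was at -0.28 on the deposited scale, and AT5G35100, at about 0, was at 0.12 with median scaling, 0.0077 and 0.0181 without numbers 1 and 2 or 3 and 4, and from -0.11 to 0.13 with 1 sample left out. All genes had 1 probe each, so taking the mean of several probes changed nothing.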
